A study of Mus musculus with 23 samples.

Results

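Erythroid-primed cells were sought among mouse bone marrow cells sorted as KSL, the c-Kit-positive, Sca1-positive, lineage-negative fraction that holds blood stem cells and multipotent progenitors. A cell was counted as erythroid-primed when at least 4 of the 6 red-cell genes Klf1, Car1, Ermap, Aqp1, Rhd and Tspo2 each had at least 1 UMI, a unique molecular identifier that marks 1 captured RNA molecule. Of 78945 cells kept from 11 single-cell RNA libraries, 648 met this rule. Of these, 644 came from the 50460 cells of the 6 baseline libraries and 4 from the 28485 cells of the 5 transplant libraries.

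The study compared mice whose Jarid2 or Ezh2 gene carried loxP sites (Jarid2 fl/fl, Ezh2 fl/fl; Jarid2Δ/Δ and Ezh2Δ/Δ after recombination) with Control mice, and the labels give Mx1-Cre for every group, the Control included. At baseline each genotype had 1 male and 1 female mouse, 2 months old and not transplanted, each giving 1 RNA library and 1 matched library of 6 surface antibodies. In the transplant, CD45.2 donor KSL cells were sorted 18 weeks after 500000 donor cells and 500000 CD45.1 competitor cells had been given to lethally irradiated recipients, with 1 Control, 2 Ezh2 KO and 2 Jarid2 KO libraries. Mx1-Cre responds to interferon and is not restricted to blood stem cells, so recombination need not be limited to the sorted cells. Which exons were deleted is not stated in the sources used here. The transplant libraries carry no sex label, and 3 of the 5 held both Xist-positive and Y-gene-positive cells.

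Red-cell commitment is driven by the transcription factors GATA1 and KLF1, and erythropoietin signals through its receptor, encoded by Epor, to keep later precursors alive. Committed cells take up iron through the transferrin receptor, build heme in a chain of enzymes from Alas2 to Fech, remodel the cell membrane and fill with globin. Ezh2 encodes the enzyme of Polycomb repressive complex 2, which methylates histone H3 at lysine 27 at silenced genes, and Jarid2 encodes an accessory subunit of the same complex.

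The baseline libraries held 93272264 to 144399414 RNA UMIs and the transplant libraries 90043219 to 134705053. The erythroid-primed cells of each baseline library had a median of 28374 to 42037 UMIs, against 10832 to 12972 in the other kept cells, which was 2.56 to 3.55 times as many. They also had more genes detected, with medians of 5478 to 6278 against 3688 to 4010. Mitochondrial transcripts made up a median of 2.87 to 3.30% of their UMIs, against 3.20 to 3.47%. Scored doublets, barcodes that resemble 2 cells in 1 droplet, made up 5.41% and 10.9% of the erythroid-primed cells in the Control male and female. The shares were 24.1% and 21.6% in the Ezh2 KO pair and 12.2% and 9.52% in the Jarid2 KO pair. Among all kept cells, scored doublets made up 6.13 to 8.30% of each baseline library. Their part in the results was not tested, but some results are also given without them. No erythroid-primed cell shared its barcode with another erythroid-primed cell across libraries.

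At baseline, 493 of the 644 cells (76.6%) had all 6 markers, 99 had 5 and 52 had 4, while 99 cells just outside the rule had 3. The median UMI count was 39170 with 6 markers, 22490 with 5, 14796 with 4 and 11509 with 3, so the rule favours cells with more RNA. Cells with 4 markers had a pooled Car1 level of 1443 CPM, a gene's UMIs scaled to a fixed library total, and those with 3 had 769. Gata1 stood at 85.4 and 69.2 CPM in the same cells, Epor at 19.4 and 20.0, and the stem cell gene Mecom at 195 and 231. With all 6 markers, Gata1 reached 107 CPM, Epor 72.2 and Mecom 31.8, so pooled Mecom was higher in cells at the edge of the rule. Scored doublets made up 14.1% of cells with 3 markers, 21.2% with 4, 26.3% with 5 and 9.94% with 6. Their part in these levels was not tested. Of the 644 baseline cells, 36 (5.59%) also met a lymphoid rule, against 41.9% of all kept baseline cells. A macrophage rule was met by 6 (0.932%, against 0.295%) and a megakaryocyte rule by 4 (0.621%, against 1.83%). A myeloid rule was met by 1 (0.155%, against 1.39%) and a mast cell rule by 0 (against 0.279%).

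The share of erythroid-primed cells at baseline was highest in 2 of the 3 females and differed little between the other 4 mice. In Control mice it was 0.517% in the male (37 of 7162 cells, 95% exact binomial interval 0.364 to 0.711%) and 2.39% in the female (202 of 8451, 2.08 to 2.74%). In Ezh2 KO mice it was 0.832% in the male (79 of 9491, 0.660 to 1.04%) and 0.876% in the female (88 of 10041, 0.703 to 1.08%). In Jarid2 KO mice it was 0.630% in the male (49 of 7783, 0.466 to 0.831%) and 2.51% in the female (189 of 7532, 2.17 to 2.89%). The Control and Jarid2 KO females stood apart from the other 4 libraries, and their intervals overlapped each other. These intervals cover counting error only.

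Group means were 1.45% ± 1.33 (SD, n = 2) in Control, 1.57% ± 1.33 in Jarid2 KO and 0.854% ± 0.0311 in Ezh2 KO. No genotype difference passed an exact two-sided permutation test, which with 2 libraries against 2 cannot go below p = 0.333. Jarid2 KO minus Control was 0.116 percentage points (p = 0.667, exact permutation), Ezh2 KO minus Control -0.599 points (p = 1, exact permutation) and Jarid2 KO minus Ezh2 KO 0.715 points (p = 1, exact permutation). Between libraries of the same sex, Jarid2 KO minus Control was 0.113 points in males and 0.119 in females, with 1 library on each side. Each mean joins 1 male and 1 female, so leaving out 1 library also changes the mix of sexes compared. Without the Control female, Ezh2 KO minus Control was 0.338 points. Without the Control male or the Jarid2 KO female, Jarid2 KO minus Control was -0.821 or -0.824 points, and without the Jarid2 KO female, Jarid2 KO minus Ezh2 KO was -0.225 points. In a comparison chosen after the shares were seen, over the 3 genotypes the females averaged 1.93% ± 0.910 (SD, n = 3) and the males 0.660% ± 0.160, a difference of 1.27 points with p = 0.10 in an exact permutation test, the smallest p that 3 against 3 allows. The female share was 4.63 times the male share in Control and 3.99 times in Jarid2 KO, but 1.05 times in Ezh2 KO, with 1 animal behind each value.

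**Figure D1:**
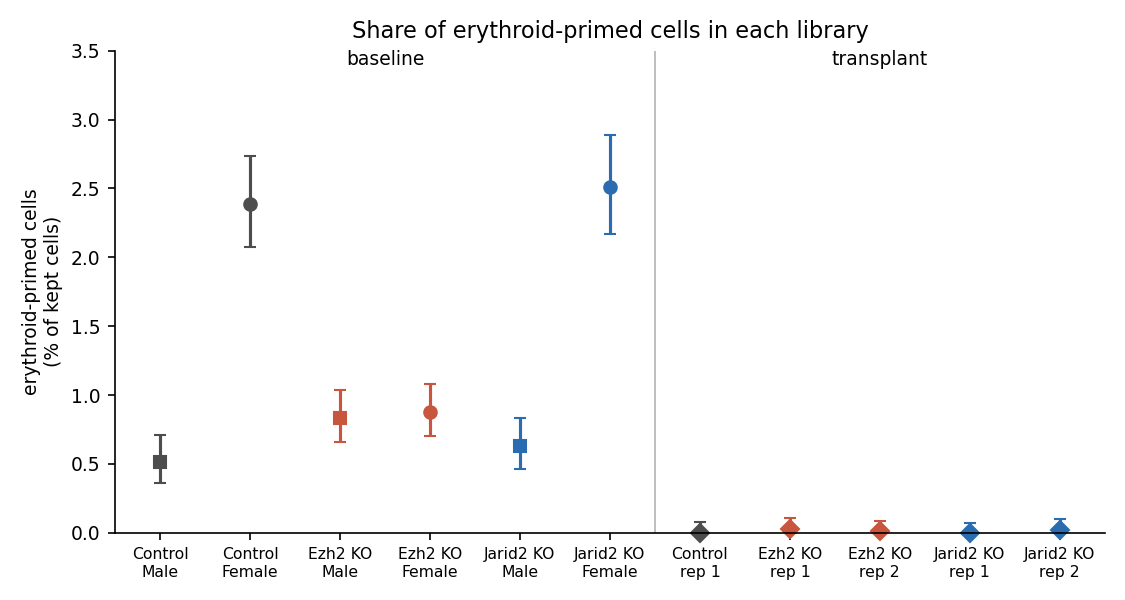
Percent of kept cells that met the erythroid rule in each of 11 libraries, with 95% exact binomial intervals. Squares are males, circles females and diamonds transplant libraries with no sex label. The Control and Jarid2 KO females lie at 2.39 and 2.51%, the other 4 baseline libraries between 0.517 and 0.876%, and the 5 transplant libraries at 0.0301% or less.

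The same 2 female libraries stood highest under each of 3 other ways of counting. Cells with at least 5000 UMIs were thinned to 5000 and the rest left out, at baseline 10 erythroid-primed and 3054 other cells. The shares were then 0.323 and 1.61% in the Control male and female, 0.486 and 0.516% in the Ezh2 KO pair and 0.398 and 1.80% in the Jarid2 KO pair. Without scored doublets they were 0.521, 2.29, 0.687, 0.749, 0.591 and 2.43% in the same order. Car1 was also found outside the rule, in 0.744 to 9.36% of the other cells of a library and in 0.668 to 8.43% of its lymphoid-primed cells, which should lack it. With Car1 left out of the rule, a setting added for this reason, the shares were 0.447, 2.26, 0.769, 0.717, 0.578 and 2.38%.

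After transplantation erythroid-primed cells were almost undetected. The Control library had 0 of 4663, which allows a share of up to 0.0643% when 3 cells are taken as the limit of a count of 0, a narrower bound than the exact interval in the plot of shares. The Ezh2 KO libraries had 2 of 6638 (0.0301%, exact interval 0.00365 to 0.109%) and 1 of 6321 (0.0158%). The Jarid2 KO libraries had 0 of 5448, which allows up to 0.0551% by the same limit, and 1 of 5415 (0.0185%). None of the 4 cells had all 6 markers: 1 had 5 and 3 had 4, so the erythroid label is weak for them. All 4 also met the myeloid rule, but so did 27085 of the 28485 kept transplant cells (95.1%). That count therefore does not set the 4 cells apart. With 0 to 2 such cells a library, genotype differences were not detectable at these cell numbers. The exact permutation p was 1 for Jarid2 KO minus Control and 0.333 for Ezh2 KO minus Control, where 1 library against 2 cannot give less than 0.333, and 0.667 for Jarid2 KO minus Ezh2 KO, where 2 against 2 cannot either. With the labels permuted within each experiment and both experiments summed, the exact permutation p values were 0.5, 1 and 0.944. Mitochondrial transcripts exceeded the 10% limit in 25.9 to 43.5% of the transplant barcodes. With no such limit, erythroid-primed cells were 0 of 8253 in Control, 4 of 8964 and 1 of 8739 in Ezh2 KO, and 1 of 8617 and 1 of 8710 in Jarid2 KO. Transcript profiles below come from the baseline cells alone.

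The 6 rule genes were the base of the choice, and their levels are a description. Values are CPM of the UMIs summed over the erythroid-primed cells of a library, averaged over the 6 baseline libraries, against the same over all other kept cells. Car1, a carbonic anhydrase, stood at 3980 ± 365 CPM (SD, n = 6) against 5.47. Klf1 stood at 174 CPM against 1.01, Ermap, a red-cell membrane protein, at 329 against 0.677, and the water channel Aqp1 at 233 against 2.59. Rhd, which carries the Rh blood group, stood at 171 against 1.05, and Tspo2, a transporter-like protein of erythroid precursors, at 142 against 0.238. The other cells of the Control and Jarid2 KO females, the libraries richest in erythroid-primed cells, had 8.78 and 10.8 CPM of Car1, and the other 4 libraries 2.14 to 4.37.

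Promoter sequence was read for the rule genes and for the genes that stood out with them. The cells were chosen on the rule genes, and the other genes for standing high in those cells. That both groups are high together therefore follows from the choice. The motifs searched were the letters bound by GATA factors, which are AGATAA or AGATAG as well as TGATAA or TGATAG, and CCACACCC and the looser CCNCNCCC, letters bound by KLF factors, on both strands. Windows ran from 250 bases before to 50 bases after each RefSeq start (build GRCm38.p6), 32851 windows of 27025 genes in all. A GATA motif was present in 3 of the 5 rule genes with a window (Car1 was not matched), in 8 of 11 matched genes among the 15 that stood highest in erythroid-primed cells, and in 1 of 9 matched genes among the 15 that stood lowest. Across all genes the share was 33.0%. CCACACCC was present in 0 of 5, 1 of 11 and 0 of 9, against 4.09% of all genes, and CCNCNCCC in 3 of 5, 7 of 11 and 4 of 9, against 51.9%; every CCACACCC is also a CCNCNCCC. A match is a description of letters and not a bound site. Stretches were chosen for holding a motif, so the rule genes Aqp1 and Tspo2, whose windows held no GATA motif, are not shown. The last 100 bases before the start are shown in the gene's own orientation for 3 rule genes and for the blood group genes Kel and Rhag, with each GATA motif or its reverse complement in capitals. These are Klf1 at chr8:84901882-84901981 on the plus strand, Ermap at chr4:119189996-119190095 on the minus strand, Rhd at chr4:134864436-134864535 on the plus strand, Kel at chr6:41704326-41704425 on the minus strand and Rhag at chr17:40811049-40811148 on the plus strand.
Klf1: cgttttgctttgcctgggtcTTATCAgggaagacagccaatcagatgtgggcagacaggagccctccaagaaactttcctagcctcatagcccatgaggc
Ermap: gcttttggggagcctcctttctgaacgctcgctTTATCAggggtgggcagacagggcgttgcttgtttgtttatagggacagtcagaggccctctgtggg
Rhd: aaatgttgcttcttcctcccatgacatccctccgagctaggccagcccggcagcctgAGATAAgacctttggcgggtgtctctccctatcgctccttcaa
Kel: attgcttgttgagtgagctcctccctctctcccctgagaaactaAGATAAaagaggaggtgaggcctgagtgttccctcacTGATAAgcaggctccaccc
Rhag: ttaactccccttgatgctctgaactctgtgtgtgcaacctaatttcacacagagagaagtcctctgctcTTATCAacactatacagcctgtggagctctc
Klf1, Ermap and Rhag each hold 1 motif in the opposite orientation to the gene in this stretch, Rhd holds 1 in the gene's orientation and Kel holds 2.

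Among all 13743 genes at 1 CPM or more in either class, 23.8% were higher in the erythroid-primed cells of all 6 baseline libraries and 49.1% were lower in all 6, with a median log2 difference of -0.34. The cells were chosen on transcripts, so the lists below are counted beside this background with no test. Of 18 erythroid transcription factors, 7 were higher and 7 lower in all 6 libraries. Gata1, the central red-cell regulator, stood between 103 and 107 CPM in every library against 1.74 to 6.03 in the other cells, and it had a UMI in 87.5 to 95.9% of erythroid-primed cells. Cells that met the megakaryocyte rule averaged 40.3 CPM of Gata1. Gfi1b, a repressor needed in red cells and platelets, stood at 119 CPM against 17.9, and Tal1, a partner of GATA1, at 103 against 62.6. Zfpm1, which encodes the GATA1 cofactor FOG1, stood at 154 against 74.9, and Myb at 518 against 332. Runx1, a regulator of early blood cells, was lower, at 264 CPM against 613, as was Lmo2, at 488 against 746. Gata2, which precedes Gata1 in blood development, stood at 52.4 CPM against 60.2 and did not keep 1 direction over the libraries.

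Of 15 genes of erythropoietin response and iron uptake, 8 were higher and 4 lower in all 6 libraries. Epor stood at 53.5 to 69.5 CPM against 0.654 to 1.57, and 62.2 to 85.2% of erythroid-primed cells had an Epor UMI, against 0.789 to 1.82% of the others. The transferrin receptor Tfrc stood at 128 CPM against 27.8, and the iron reductase Steap3 at 89.1 against 10.6. The iron transporter Slc11a2 stood at 50.9 CPM against 7.35. Some genes of the list went the other way: Pim1 stood at 37.7 CPM against 340, Cish at 1.57 against 13.8 and Socs3 at 0.366 against 6.03. The genes named here are examples from the list, and no subset of it was counted or tested.

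Of 12 heme synthesis genes, 10 were higher and 0 lower in all 6 libraries. Cpox stood at 217 CPM against 20.4, Alad at 149 against 26.4 and Fech, which inserts the iron, at 50.8 against 15.2. Alas2, the red-cell enzyme that opens the pathway, was an exception at 1.42 CPM against 2.52. Its broadly expressed counterpart Alas1 stood at 14.2 against 20.1. The middle and late steps were therefore high while neither gene of the first step was.

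Of 15 red-cell membrane genes at 1 CPM or more, 12 were higher and 1 lower in all 6 libraries. Ank1, which anchors the membrane skeleton, stood at 102 CPM against 1.32, and Rhag, the Rh-associated channel, at 94.1 against 0.844. Kel stood at 79.3 against 0.475. Slc4a1, the late anion exchanger, stood at 0.838 CPM against 0.0452. Slc4a1 was thus scarce. Of 4 adult globin genes, 2 were higher and 0 lower in all 6 libraries, with a median log2 difference of 2.65. Even so, Hba-a1 had a UMI in only 10.8 to 32.3% of erythroid-primed cells. Its level ran from 20.1 to 131 CPM over the libraries, against 0.419 to 6.11 in the other cells. Hbb-bt had a UMI in 2.70 to 24.9% of erythroid-primed cells and in 10.3 to 19.6% of the other cells. After thinning to 5000 UMIs, Hba-a1 was found in 5.56 to 10.3% of erythroid-primed and 0.0966 to 0.976% of other cells, and Hbb-bt in 2.35 to 7.69% against 5.87 to 12.4%, so the Hbb-bt share is not read as expression. The 4 embryonic globin genes were below 1 CPM in both classes.

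Of 20 genes listed for early erythroid progenitors, 18 were higher and 2 lower in all 6 libraries. Slc25a21, a mitochondrial carrier, stood at 1170 CPM against 7.27, Car2 at 2045 against 529 and Blvrb, a biliverdin reductase, at 860 against 41.1. Sphk1, a sphingosine kinase, stood at 96.6 against 0.126 and Mt2, a metallothionein, at 223 against 1.80. The exceptions were Cnrip1, at 2.35 CPM against 35.7, and Muc13, at 57.3 against 119. Outside the rule, the 15 genes with the largest difference upward were Slc25a21, Sphk1, Mt2, Atp1b2, Col5a1, Ces2g, Slc38a5, Kel, Prss50, Rhag, Cldn13, Nxpe2, Add2, Ank1 and Paqr9. The 15 largest downward included the B-lineage genes Igkc, Jchain, Ighm, Ebf1, Vpreb3, Iglc2, Iglc1, Vpreb1, Igll1, Cd79a and Mzb1. The rest were the lymphoid surface gene Ly6d and the granule genes Ctsg, Elane and Mpo. Igkc had a UMI in 30.7 to 65.3% of erythroid-primed and 16.8 to 48.8% of other cells. After thinning to 5000 UMIs these shares were 5.47 to 16.5% and 7.61 to 27.2%. Its summed level in the other cells, 2067 to 5592 CPM, went with a median of 0 UMIs, so it does not describe their typical cell.

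Stem cell genes were low, with 0 of 12 higher and 10 lower in all 6 libraries. Hlf stood at 38.9 CPM against 538, Mecom at 55.6 against 619, Meis1 at 68.6 against 647 and Cd34 at 16.7 against 253. The transcript of the sorting marker Sca1, Ly6a, stood at 5.89 CPM against 62.7, while Kit, which encodes c-Kit, stood at 222 against 271. All 12 myeloid granule genes and all 13 lymphoid genes at 1 CPM or more were lower in all 6 libraries, as were 14 of 16 megakaryocyte genes. The summed lymphoid list was 26.6 to 132 CPM in erythroid-primed cells and 825 to 3376 in the other cells. The summed macrophage list was the reverse, at 49.0 to 63.8 CPM against 6.65 to 14.5, and 1 of its 4 genes at 1 CPM or more was higher in all 6 libraries. That gene was Slc40a1, the iron exporter, at 50.4 CPM against 1.04, which red-cell precursors also express.

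Genes of the cell cycle were high. Of 20 DNA replication genes 17 were higher and 1 lower in all 6 libraries, with a median log2 difference of 0.50, and of 20 mitosis genes 14 were higher and 0 lower, with a median of 0.63. Cdc6, which loads replication origins, stood at 60.4 CPM against 20.8, Mcm2 at 109 against 59.6, Mki67 at 327 against 204 and the mitotic kinase Plk1 at 46.5 against 21.0. The size of the excess differed between libraries. The mitosis list summed to 2060 CPM against 1605 in the Control male and 2473 against 1359 in the female. In Jarid2 KO it was 2466 against 1501 and 2852 against 1432, and in Ezh2 KO 2381 against 2284 and 2518 against 1911. The excess was least in the Ezh2 KO male, where the other cells were highest. Of 11 PRC2 subunit genes 1 was higher and 6 lower in all 6 libraries.

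**Figure D2:**
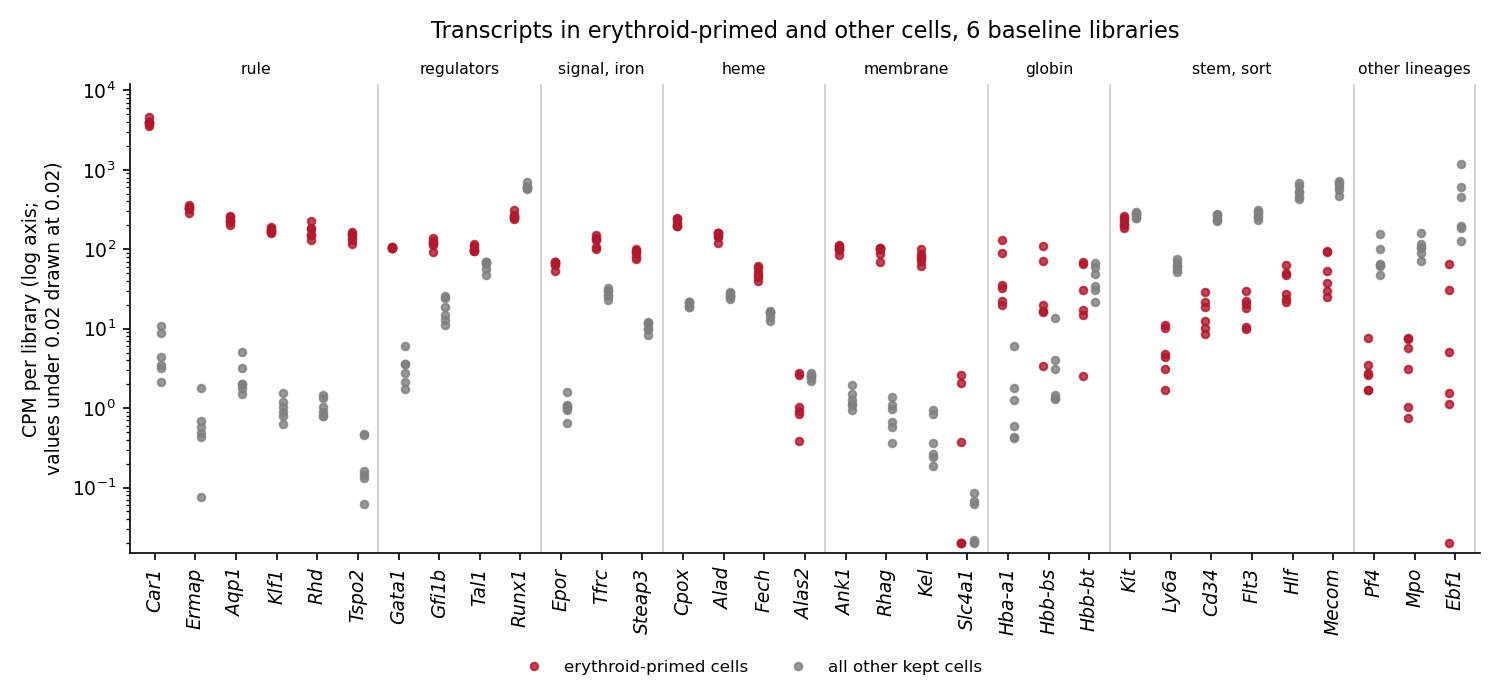
Transcript levels in CPM on a log axis in erythroid-primed cells (red) and all other kept cells (grey), 1 point for each of 6 baseline libraries. Gata1 and Epor lie well above the other cells in every library, Alas2 and Slc4a1 stay below 3 CPM, globins spread widely over libraries, and Cd34, Flt3, Hlf and Mecom lie below the other cells.

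Surface antibody counts were not used to choose the cells, so they could be tested. Levels are centred log2 ratios: log2 of a cell's antibody UMIs plus 1, minus the mean over its 6 antibodies. CD117, the c-Kit protein, was higher in erythroid-primed cells than in the other cells of the same library in 6 of 6 libraries, by 0.596 ± 0.100 (SD). The tag that reads the Sca1 antibody was lower in 6 of 6, by -0.843 ± 0.151, and CD135, the Flt3 protein, in 6 of 6, by -1.38 ± 0.212. CD150, which marks stem cells and cells primed toward megakaryocytes and red cells, was higher in 6 of 6, by 1.19 ± 0.465, and CD201, the endothelial protein C receptor, in 6 of 6, by 0.222 ± 0.155. Each of these 5 had p = 0.03125 in an exact two-sided sign-flip permutation test over 6 libraries, the smallest p it can give, and 0.0375 after Benjamini-Hochberg adjustment over the 6 antibodies. CD48, found on most progenitors past the stem cell, was higher in 4 of 6 libraries by 0.216 ± 0.364 (p = 0.219, exact permutation) and did not pass. Against other cells matched on RNA UMIs, it was lower in 6 of 6, by -0.630 (p = 0.03125, exact permutation), so its direction turned with the RNA content of the cells compared. In the same matched comparison the Sca1 tag was lower by -0.423 and CD201 higher by 0.691, each in 6 of 6 libraries, while CD117, CD150 and CD135 moved less. On log2 antibody UMIs without centring, CD117 was higher by 0.960, CD201 by 0.586 and CD150 by 1.55 and the Sca1 tag and CD135 lower by -0.479 and -1.02, each in 6 of 6 libraries, so sizes depend on the scale while these directions did not. With at least 3 markers required in place of 4, CD201 was higher in 5 of 6 libraries by 0.201 and did not pass (adjusted p = 0.075, exact permutation).

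In antibody UMIs, CD150 had a median of 81 in the Control male, 48.5 in the Control female, 72 and 133 in the Ezh2 KO male and female and 55 and 42 in the Jarid2 KO male and female. The other cells of those libraries had medians of 12, 21, 15, 22, 19 and 18, so the ranges over libraries did not overlap. For CD135 the erythroid-primed medians were 12 to 19.5 UMIs and the others 27 to 46. For the Sca1 tag they were 266 to 367 and 370 to 454, with neither class near 0. Compared with cells that met the megakaryocyte rule, a comparison chosen after the antibody counts were seen, erythroid-primed cells had lower CD150, by -1.50, and higher CD48 and CD201, by 0.790 and 0.459, each in 6 of 6 libraries (p = 0.03125 by exact permutation, adjusted 0.0469). The centred ratios of 6 antibodies sum to 0, so a low CD150 lifts the others, and median UMIs of CD48 and CD201 were also higher in 6 of 6 libraries. CD135 was 0.185 higher as a centred ratio, but its median UMIs went both ways (12 against 14 in the Control female, 15 against 13.5 in the Control male), so no difference is read from it. CD117 was 0.212 above the megakaryocyte-primed cells (adjusted p = 0.075, exact permutation) and the Sca1 tag 0.144 below (p = 0.125, exact permutation), and neither passed.

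**Figure D3:**
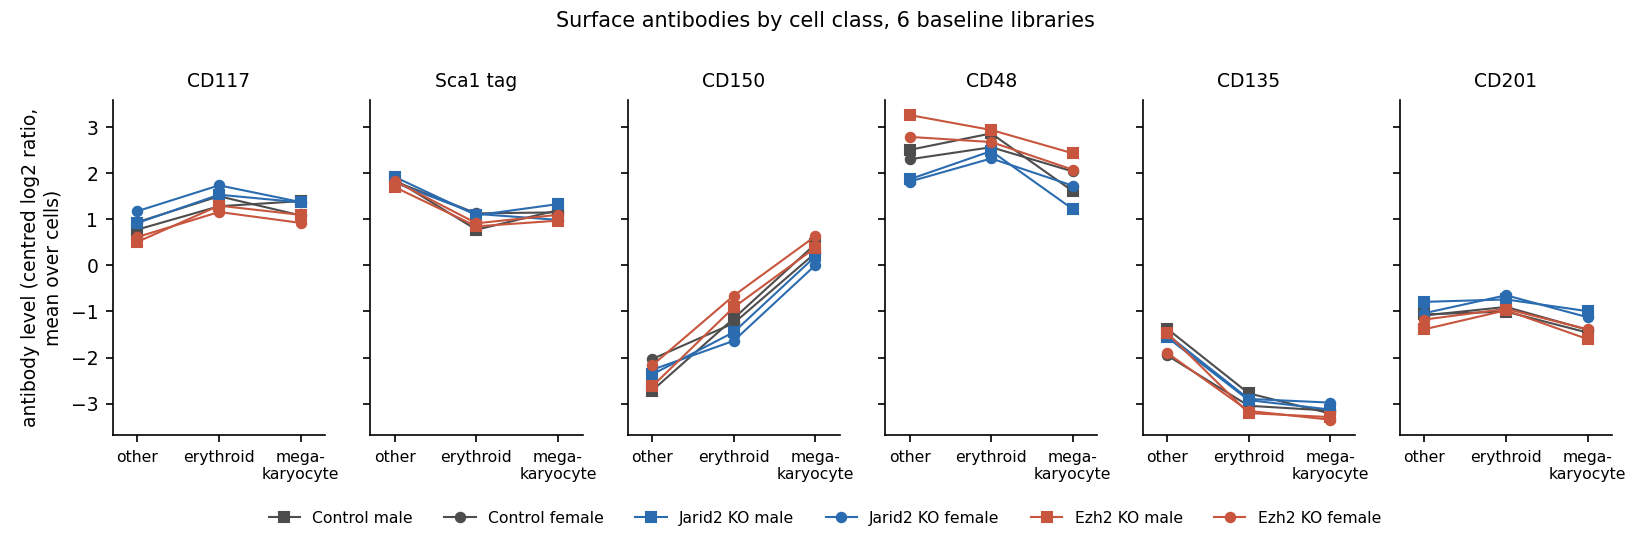
Mean antibody level (centred log2 ratio) in other, erythroid-primed and megakaryocyte-primed cells, with 1 line for each of 6 baseline libraries, coloured by genotype and marked by sex. Every line goes up from other to erythroid-primed cells for CD117, CD150 and CD201 and down for the Sca1 tag and CD135, while the CD48 lines go both ways.

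Genotypes were then compared within the erythroid-primed cells of the 6 baseline libraries. Counts were summed over the cells of a library and fitted with edgeR's quasi-likelihood test with sex as a term, over 10182 genes after leaving out the rule genes. A call is an adjusted p (Benjamini-Hochberg over all genes tested) under 0.05. The targeted genes come first. Ezh2 stood at 271 and 269 CPM in the Control male and female, 275 and 256 in Jarid2 KO and 146 and 136 in Ezh2 KO. The Ezh2 KO cells were lower than both other groups without overlap, and the change from Control was -0.92 on the log2 scale (SE 0.12, adjusted p = 0.0074). In the other kept cells Ezh2 stood at 209 and 188 CPM in Control and 163 and 151 in Ezh2 KO. Jarid2 stood at 136 and 91.1 CPM in Control, 122 and 100 in Jarid2 KO and 96.2 and 112 in Ezh2 KO, and was called in no contrast. Transcripts counted at the 3′ end need not fall when exons are deleted elsewhere, so Jarid2 does not check its label here.

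Between Ezh2 KO and Control, 27 genes were called (0.265% of those tested), 24 higher (0.236%) and 3 lower (0.0295%) in Ezh2 KO. The groups overlapped for none of the 27, and they did not overlap for 33.2% of all genes tested. DESeq2 called 11. The count was 24 without the Control female, of which 11 were among the 27, 34 and 36 without the Jarid2 KO male or female, 58 without the Control male, 142 without the Ezh2 KO female, 480 without the Ezh2 KO male and 14 without scored doublets. None of the 11 tested heme genes or 14 tested membrane genes was called, and of 19 tested early progenitor genes 1 was. That gene was Mt2, at 141 and 203 CPM in Control and 282 and 301 in Ezh2 KO (0.78, adjusted p = 0.042). Gata1 changed by 0.06, Klf1 by -0.01 and Epor by 0.05, none of them called.

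Bex4 gave one of the clearest differences and, with Pbx3, Kcnq5, Gkap1, Bmi1, Col5a1 and Apoe, was picked after values were seen. Bex4, a small protein of the brain-expressed X-linked family, stood at 70.5 and 114 CPM in Control, 54.8 and 87.4 in Jarid2 KO and 235 and 275 in Ezh2 KO. Both Ezh2 KO libraries lay above all 4 others, with a change from Control of 1.49 (SE 0.15, adjusted p = 0.0022). Pbx3, a homeobox partner of HOX proteins, stood at 40.8 and 33.0 CPM in Control, 31.3 and 15.3 in Jarid2 KO and 118 and 114 in Ezh2 KO (1.67, adjusted p = 0.0048). In the other cells Pbx3 was high in Ezh2 KO as well, at 115 and 112 CPM against 54.5 and 58.9 in Control. Kcnq5, a potassium channel, stood at 121 and 112 CPM in Control and 237 and 215 in Ezh2 KO (0.98, adjusted p = 0.0049). Its level in the other cells was 401 and 428 in Control and 428 and 422 in Ezh2 KO. Bex4, Pbx3, Kcnq5, Mpped2 and Ezh2 stayed called in all 14 alternative fits, with adjusted p at most 0.025. Of these fits 6 leave out 1 library, and where that leaves a compared group with 1 library its spread is assumed to be that of the other groups.

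Bmi1, a subunit of the other Polycomb complex, stood at 17.8 and 17.3 CPM in Control, 16.7 and 16.4 in Jarid2 KO and 41.3 and 52.5 in Ezh2 KO (1.47, adjusted p = 0.0074), and at 18.9 and 19.04 against 32.7 and 32.0 in the other cells of Control and Ezh2 KO. Col5a1, a collagen gene among those that set erythroid-primed cells apart, stood at 51.8 and 47.3 CPM in Control, 61.6 and 84.2 in Jarid2 KO and 94.5 and 122 in Ezh2 KO (1.21, adjusted p = 0.0074). Without the Control female, the change was 1.32 for Bmi1 and 0.89 for Col5a1 (adjusted p = 0.15 for each), and DESeq2 gave 0.082 for Bmi1. The genes named by size of change were Igha, Ebf1, Ank2, Bex1, Mpped2, Ccnd1, Cecr2 and Ptpn13, which were higher in Ezh2 KO, and Ccnb1ip1 and Fosb, which were lower. Ank2, an ankyrin of excitable cells, stood at 0 and 3.08 CPM in Control and 32.4 and 29.0 in Ezh2 KO, with UMIs in 26.6 and 19.3% of the Ezh2 KO cells, and DESeq2 gave it an adjusted p of 0.19. Mpped2, a phosphodiesterase-like gene, stood at 5.10 and 9.40 CPM in Control and 30.4 and 40.6 in Ezh2 KO (2.17, adjusted p = 0.0074). Ccnd1, which encodes cyclin D1, stood at 11.9 and 10.2 CPM in Control and 35.8 and 53.3 in Ezh2 KO (2.07, adjusted p = 0.016).

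**Figure D4:**
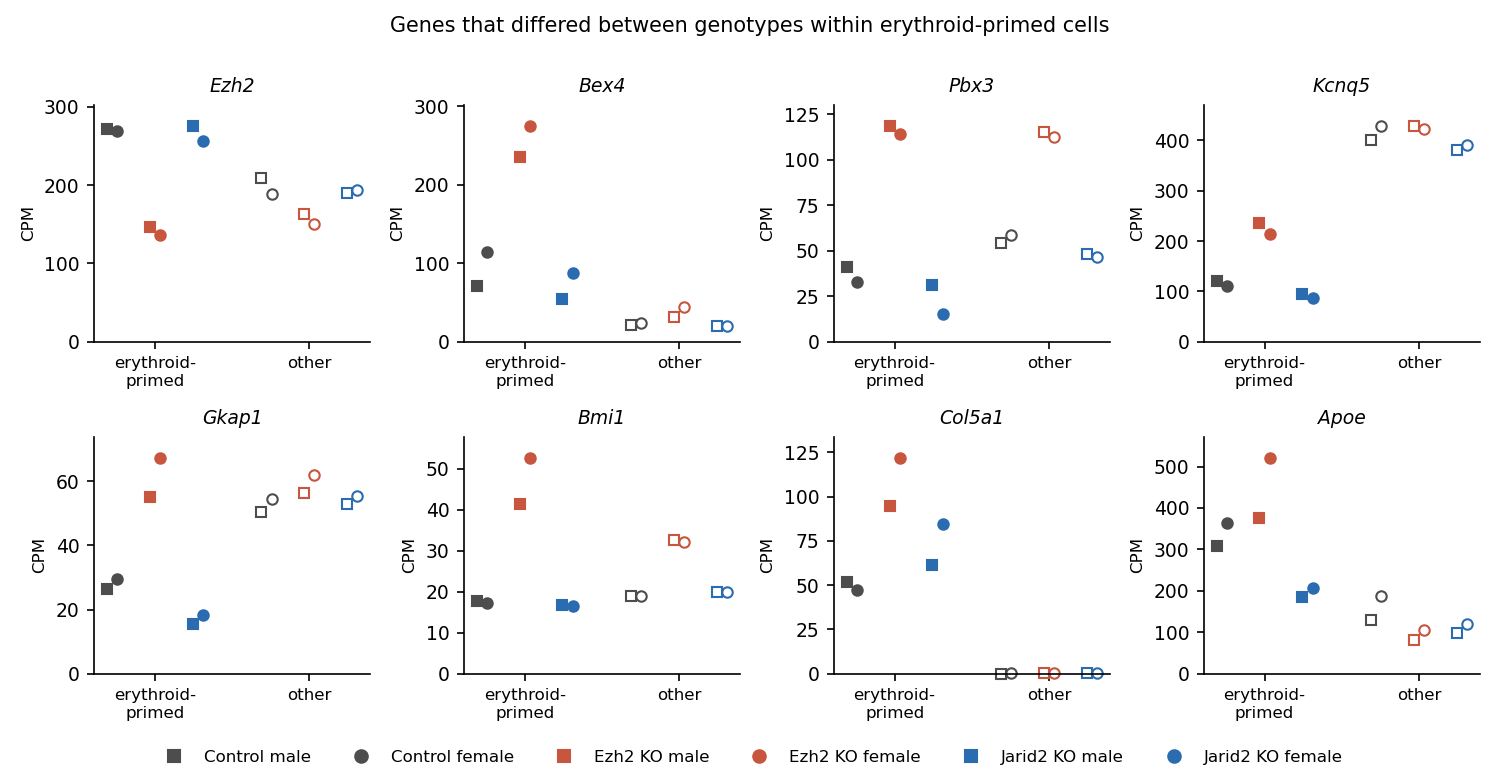
CPM of 8 genes in erythroid-primed cells (filled) and other kept cells (open) of the 6 baseline libraries, squares for males and circles for females. Among the filled points, Ezh2 is lower and Bex4, Pbx3, Kcnq5, Gkap1 and Bmi1 are higher in the male and the female Ezh2 KO library than in the other 4, and Apoe is lowest in both Jarid2 KO libraries.

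Some calls rested on few cells. Igha, an antibody heavy chain gene, stood at 0.850 and 0.771 CPM in Control and at 4.77 and 715 in Ezh2 KO, and 1 cell of the Ezh2 KO female, a scored doublet with 4 markers, held 9383 of that library's 9563 immunoglobulin UMIs (98.1%). Without the cell richest in globin and the cell richest in immunoglobulin of each library, the Igha change was 3.84 (adjusted p = 0.10). Without the Control female or the Ezh2 KO female, its change was 3.14 or 2.36 (adjusted p = 0.85 or 0.49). Ebf1, a B-lineage factor, stood at 5.10 and 0 CPM in Control and 65.5 and 30.9 in Ezh2 KO, where 18 of 79 cells of the male and 5 of 88 of the female had a UMI. In Ezh2 KO 1 cell held 48.4% of the Ebf1 UMIs of the male and 1 cell 87.5% of those of the female. Without scored doublets the Ebf1 change was 3.35 (adjusted p = 0.62). The lymphoid list, which holds Ebf1, summed to 129 and 132 CPM in the erythroid-primed cells of Ezh2 KO and 68.8 and 44.9 in those of Control. Without Ebf1 it summed to 63.4 and 101 against 63.7 and 44.9, and the groups overlapped. In the other cells the list summed to 3376 and 2039 CPM in Ezh2 KO and 1661 and 825 in Control. Of 7 tested genes of the list, 6 were higher in the erythroid-primed cells of Ezh2 KO and 1 was called, with a median change of 1.79. Over all genes, 5104 of 10188 were higher and the median was 0.00058. The B-lineage gene Vpreb3 was also among the 27 called genes. Neither the median of the lymphoid list nor the Vpreb3 call is given without scored doublets.

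Other calls of the list were lost in a fit with fewer samples or cells while the change kept its direction. Without the Control female, which leaves 1 Control library, Bex1 changed by 2.69 (adjusted p = 0.32, against 3.33 with all libraries), Ccnd1 by 1.94 (0.13, against 2.07), Fosb by -2.07 (0.16, against -2.01), Cecr2 by 1.56 (0.38, against 1.76) and Ccnb1ip1 by -1.31 (0.69, against -2.25). Without scored doublets, Fosb changed by -2.09 (0.33), Cecr2 by 1.58 (0.20), Ptpn13 by 1.84 (0.071, against 1.72) and Ccnb1ip1 by -2.08 (0.23). Without the Ezh2 KO female, Bex1 changed by 2.14 and Ccnd1 by 1.31, and without the Control female Ptpn13 changed by 2.65, each still called. Ank2 and Ebf1 stood at 0 in 1 Control library, and their fitted changes ran over 3.24 to 9.61 and 3.70 to 10.1 when 1 library was left out.

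Between Jarid2 KO and Control no gene was called (0% of 10182 tested) by edgeR, with 280 genes at an unadjusted p under 0.05, and DESeq2 called 2. Leaving out 1 library gave 3 to 102 calls: 102 and 98 without the Ezh2 KO male or female, 10 and 9 without the Control male or female, and 4 and 3 without the Jarid2 KO male or female. The 5 genes with the smallest p and groups that did not overlap were Hba-a1, Hbb-bs, Apoe, Hbb-bt and Cyba, not called. The groups did not overlap for 32.8% of all genes tested. Apoe, a lipid carrier made in early red-cell precursors, stood at 309 and 363 CPM in Control and 184 and 207 in Jarid2 KO, a difference of -0.74 (adjusted p = 0.11). Cyba, an oxidase subunit, stood at 109 and 143 CPM in Control and 241 and 203 in Jarid2 KO (0.80, adjusted p = 0.32). Gata1 differed by 0.08, Klf1 by 0.19 and Epor by 0.15, none called. All 4 globin genes in the fit were higher in Jarid2 KO, with a median change of 2.06, against -0.0017 over all genes.

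In every baseline library 1 cell held a large part of the globin UMIs. Hba-a1, which encodes alpha globin, stood at 22.1 and 35.5 CPM in Control, 131 and 90.6 in Jarid2 KO and 20.1 and 32.4 in Ezh2 KO. Both Jarid2 KO libraries were above the other 4, with a change of 1.81 from Control (adjusted p = 0.058). One cell held 554 of 647 globin UMIs (85.6%) in the Jarid2 KO male and one held 891 of 1957 (45.5%) in the Jarid2 KO female. In the Control male 1 cell held 33 of 45 (73.3%) and in the Control female 180 of 528 (34.1%). In the Ezh2 KO male and female 1 cell held 31.7 and 31.5%. A globin UMI was found in 34.7 and 44.4% of the Jarid2 KO male and female cells. That share was 10.8 and 34.2% in Control and 45.6 and 34.1% in Ezh2 KO. Without the richest cells Hba-a1 stood at 4.74 and 25.6 CPM in Control, 15.4 and 56.0 in Jarid2 KO and 15.8 and 18.5 in Ezh2 KO. The groups then overlapped, and the change from Control was 1.15 (adjusted p = 1.0).

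**Figure D5:**
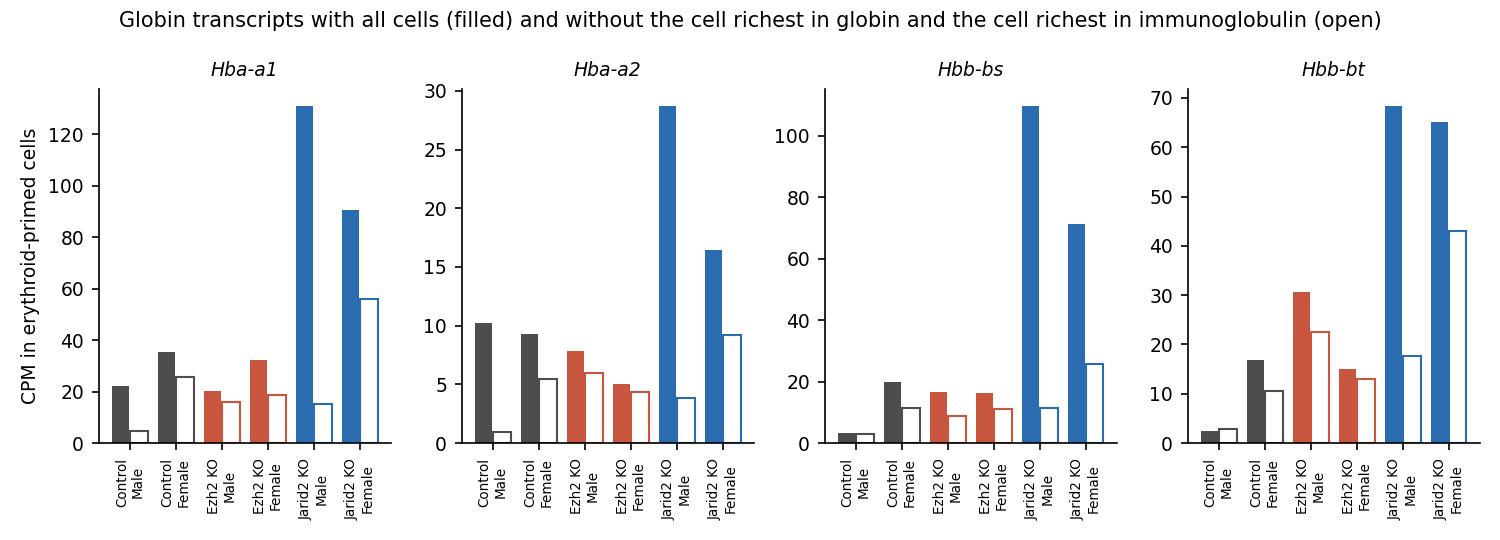
CPM of 4 adult globin genes in the erythroid-primed cells of each baseline library, with all cells (filled bars) and without the cell richest in globin and the cell richest in immunoglobulin UMIs (open bars). Hba-a1 in the Jarid2 KO male falls from 131 to 15.4 CPM when these cells are left out.

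Between Jarid2 KO and Ezh2 KO, 78 genes were called (0.766% of those tested), 7 higher (0.0687%) and 71 lower (0.697%) in Jarid2 KO. The groups overlapped for none of the 78, and they did not overlap for 41.2% of all genes tested. DESeq2 called 34. The count was 904 without the Ezh2 KO male, 140 without the Ezh2 KO female, 227 and 217 without the Control male or female, 50 and 14 without the Jarid2 KO male or female and 32 without scored doublets. This comparison shares its Ezh2 KO libraries with the one against Control, so the same high values enter both. Gkap1, which encodes an anchoring protein of the kinase PRKG1, stood at 15.7 and 18.2 CPM in Jarid2 KO and 55.2 and 67.2 in Ezh2 KO (-1.83, adjusted p = 0.00026), with 26.3 and 29.4 in Control. Bex4 fell by 1.83 and Pbx3 by 2.46 (adjusted p = 0.00023 for each) and Kcnq5 by 1.29 (adjusted p = 0.00026). Ppm1e, a phosphatase, stood at 8.35 and 3.11 CPM in Jarid2 KO, 16.1 and 11.9 in Control and 34.1 and 40.9 in Ezh2 KO (-3.00, adjusted p = 0.0012). Bex4, Pbx3, Kcnq5, Gkap1 and Ppm1e stayed called in all 14 alternative fits, with adjusted p at most 0.042.

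Apoe stood at 184 and 207 CPM in Jarid2 KO and 375 and 520 in Ezh2 KO (-1.17, adjusted p = 0.00063), with 309 and 363 in Control. In the other cells Apoe stood at 98.2 and 120 CPM in Jarid2 KO and 82.2 and 106 in Ezh2 KO. Gata2 fell by 1.00 (adjusted p = 0.011), from 70.6 and 77.6 CPM in Ezh2 KO to 36.5 and 36.2 in Jarid2 KO. Of 18 erythroid transcription factors Gata2 was the single call. Of 4 globin genes 3 rose, Hba-a1, Hba-a2 and Hbb-bs, and without the richest cells Hba-a1 changed by 1.00 (adjusted p = 0.31) and Hbb-bs by 0.90 (adjusted p = 0.34). None of the 11 heme, 14 membrane, 20 DNA replication or 20 mitosis genes was called in any of the 3 contrasts. The 10 genes named by size of change were Igha, Ebf1, Kbtbd12, Ank2, Ppm1e, Bex1, Mpped2, Luzp1, Auts2 and Pbx3, all lower in Jarid2 KO. Of 7 tested lymphoid genes, 0 were higher in Jarid2 KO and 2 were called lower, with a median change of -2.36. Over all genes, 5170 of 10188 were higher and the median was 0.0044. The B-lineage genes Vpreb3, Mzb1 and Cd79a were among the 78 called genes. In the other cells the lymphoid list summed to 1035 and 929 CPM in Jarid2 KO and 3376 and 2039 in Ezh2 KO. The median of the list and the calls of these B-lineage genes are not given without scored doublets. Igha, at -7.35 with all cells, was -1.45 without the richest cells (adjusted p = 0.44), -0.52 without the Jarid2 KO female (1.0) and -0.42 without the Ezh2 KO female (0.97). Without scored doublets Ebf1 changed by -2.85 (0.39, against -4.87) and Auts2 by -2.71 (0.062, against -2.50). Without the Jarid2 KO female, which leaves 1 Jarid2 KO library, calls were lost for Apoe at -1.08 (0.074), Kbtbd12 at -4.08 (0.090, against -3.83), Mpped2 at -2.10 (0.069, against -2.67), Luzp1 at -2.09 (0.12, against -2.62) and Bmi1 at -1.37 (0.17, against -1.50). Bex1, at -2.76 with all libraries, was -1.72 without the Jarid2 KO female (0.63) and -1.68 without the Ezh2 KO female (0.11). Ezh2 itself was 0.93 higher in Jarid2 KO (adjusted p = 0.0024), and 0.92 and 0.94 higher without the Jarid2 KO male or female (adjusted p = 0.050 and 0.11).

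Whether a genotype difference in erythroid-primed cells differed from that in the other cells of the same libraries was asked with an interaction term and library as a block, over 17327 genes. edgeR called 32 genes for Jarid2 KO minus Control (0.185%), 209 for Ezh2 KO minus Control (1.21%) and 667 for Jarid2 KO minus Ezh2 KO (3.85%). DESeq2 called 4, 42 and 380. The edgeR fit had infinite prior degrees of freedom, so all genes of a given level shared 1 spread and genes that varied between replicates received very small p-values. limma on the difference between both classes in each library called 0 in every contrast, with 568, 1055 and 1464 genes at an unadjusted p under 0.05. No genotype difference is therefore given here as particular to erythroid-primed cells. For Kcnq5, the interaction in Ezh2 KO minus Control was 0.91 in limma (adjusted p = 0.76) and 0.92 in DESeq2 (adjusted p = 2.0e-09), and for Apoe it was 1.13 (adjusted p = 0.19) and 1.14 (adjusted p = 2.3e-14). The tools gave changes of the same size and differed in the call.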

How the data were processed

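Members and gene lists were chosen with earlier results of these data known. The deposited files hold raw UMI counts for each gene or antibody and cell barcode (10x 3′ v3.1 libraries). Per the file headers they were made with Cell Ranger 7.2.0 (baseline) and 6.1.2 (transplant); the submitters' processing notes name Cell Ranger 3.1.0, Seurat 3.0, Partek and build mm10. Histone CUT&Tag libraries of the series were not analysed here. Barcodes with at least 1000 UMIs, 500 genes and at most 10% mitochondrial UMIs were kept, 78945 of 97066. Free RNA was not removed. Some genes are not reported here.

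Doublets were the highest Scrublet scores (scanpy 1.11.5), 0.8% for every 1000 barcodes, since the automatic threshold marked too few; they were left out only in an alternative. Counts of erythroid-primed cells, and of all other kept cells, were summed per library and scaled to CPM. Genotypes were tested with edgeR 4.0.16 (TMM, filterByExpr, quasi-likelihood, genotype and sex, Benjamini-Hochberg), with DESeq2 1.42.0 and limma 3.58.1 as alternatives, on R 4.3.3. The edgeR fits were also run on simulated counts. Those counts took their spread from edgeR's own fitted trend, so they could not check whether the spread assumed by the fits was right. With fewer than 20 erythroid-primed cells in every transplant library, no gene test was run there. Shares and antibodies were tested with exact permutations in scipy 1.17.1. Log2 differences between cell classes use CPM plus 1. Each library came from a separate animal at baseline; nothing says so for the transplant libraries, so their spread may be technical.

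Named genes are the rule genes, Ezh2, Jarid2, list members, the 15 largest differences in each direction between classes (at least 20 CPM, same sign in the 6 baseline libraries), and the 10 largest called changes of each contrast (5 for the interaction) at 10 CPM or more with groups that do not overlap. Where none was called, the 5 smallest p-values are named. Other named genes were picked after their values were seen.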

Additional observations from a re-analysis of the deposited data

Results flagged for a closer look

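The sign of 2 share differences depended on sex. Ezh2 KO minus Control was 0.316 percentage points between the male libraries and -1.51 between the females, and Jarid2 KO minus Ezh2 KO was -0.203 in males and 1.63 in females. Each value compares 1 library with 1 library, and the difference between the sexes was not tested.

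The genes below had genotype differences that differed between erythroid-primed and other cells in edgeR's interaction test (adjusted p under 0.05), and limma on per-library differences called none of them. Values are the log2 genotype change in erythroid-primed cells minus the log2 genotype change in the other cells. For Jarid2 KO minus Control they were 3.80 for Hbb-bs, 2.77 for Hba-a1, 2.71 for Hba-a2, 2.11 for Hbb-bt and -2.19 for Il1rl1. Without the cells richest in globin or immunoglobulin UMIs, Hbb-bs stood at 2.36, Hba-a1 at 1.94 and Hbb-bt at 1.61, and Hba-a2 at 2.52 was no longer called by edgeR (adjusted p = 0.087). DESeq2 also called Hbb-bs and Hba-a1 but not Hba-a2 or Hbb-bt (adjusted p = 1.0 for each). For Il1rl1, the receptor of interleukin-33, DESeq2 gave an adjusted p of 1.47e-09 and limma 0.365. It stood at 48.4 and 40.7 CPM in erythroid-primed cells of Control and 37.6 and 38.3 in those of Jarid2 KO, and at 2.80 and 2.12 against 11.0 and 8.97 in the other cells, so the larger fold was in the other cells. For Ezh2 KO minus Control they were 5.40 for Igha, 4.54 for Igkc, 3.56 for Ebf1, 3.27 for Ank2 and 2.92 for Bex1. Without the richest cells, Igha stood at 1.29 and was no longer called by edgeR (adjusted p = 0.55), and Igkc stood at 0.79. Without scored doublets Igha stood at 0.94 (0.91) and Igkc at 0.60 (0.13), neither called. DESeq2 called Bex1 (0.00091) but not Igha (0.68), Igkc (0.72) or Ebf1 (0.43), and gave no adjusted p for Ank2. For Jarid2 KO minus Ezh2 KO they were 5.18 for Hba-a2, 4.94 for Hba-a1, 4.81 for Hbb-bs, -4.64 for Igha and -3.33 for Ank2. Without the richest cells, Igha stood at -0.31 (0.0583 without scored doublets, and not called by edgeR in either), Hba-a1 at 3.84 and Hbb-bs at 3.42. DESeq2 did not call Igha (adjusted p = 0.41) and gave no adjusted p for the 3 globin genes or Ank2.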

How the results depend on the processing

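With few cells and 2 animals a group, counts of calls moved more than single strong genes did. Within erythroid-primed cells, Jarid2 KO minus Control gave 2 calls with DESeq2, 31 with no filter on low counts, 2 with no replicate block and 4 with all 6 markers required. Ezh2 KO minus Control gave 11 with DESeq2, 119 with no filter and 14 without doublets. Jarid2 KO minus Ezh2 KO gave 34 with DESeq2, 296 with no filter, 32 without doublets and 51 without the richest cells. Leaving out 1 library gave 3 to 102, 24 to 480 and 14 to 904 calls in these contrasts, in that order. For the interaction, DESeq2 gave 4, 42 and 380 calls, limma 0, 0 and 0, and leaving out 1 library 22 to 109, 31 to 357 and 74 to 772. The replicate number is the sex of the mouse and enters every fit within erythroid-primed cells as the sex term; without this block the calls were 2, 22 and 60. The male minus female difference of each gene was correlated between genotypes over 10284 genes. The correlation was -0.114 for Control and Ezh2 KO, 0.150 for Control and Jarid2 KO and -0.101 for Ezh2 KO and Jarid2 KO. Same-numbered mice share sex and are not treated as pairs beyond that.

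Leaving out 1 library moved the baseline share differences over -0.824 to 1.06 points (Jarid2 KO minus Control), -1.54 to 0.338 (Ezh2 KO minus Control) and -0.225 to 1.65 (Jarid2 KO minus Ezh2 KO), and those of both experiments over -0.815 to 1.07, -1.51 to 0.361 and -0.239 to 1.64. In the transplant Jarid2 KO minus Control ran from 0 to 0.0185 points and was 0 with at least 5 markers or without Car1, and Jarid2 KO minus Ezh2 KO was 0.00208 after thinning. CD48 was -0.630 against cells matched on RNA UMIs and CD201 lost its call with at least 3 markers (0.201, higher in 5 of 6 libraries, adjusted p = 0.075 by exact permutation). Against megakaryocyte-primed cells CD117 was 0.212, the Sca1 tag -0.144, CD150 -1.50, CD48 0.790 and CD135 0.185.

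In fits within erythroid-primed cells, signs of the named genes turned only for changes that were not called. Without doublets, without the richest cells and with all 6 markers, Ezh2 in Jarid2 KO minus Control was -0.0258, -0.00714 and -0.0230. In Ezh2 KO minus Control, Hbb-bs was -0.0458 with at least 3 markers and -0.94 with 6, Klf1 0.0151 without doublets and 0.0737 with 6 markers, and without the richest cells Hba-a1 was 0.15 and Jarid2 0.00692. Gata1 in Jarid2 KO minus Ezh2 KO was -0.0123 with 6 markers. Leaving out 1 library, Jarid2 KO minus Control ran over -0.0461 to 0.0863 for Ezh2, -0.23 to 0.27 for Jarid2 and -0.19 to 0.10 for Bmi1. Ezh2 KO minus Control ran over -0.34 to 0.22 for Jarid2, -0.50 to 2.51 for Hbb-bs, -0.0474 to 0.0378 for Klf1 and -0.82 to 0.34 for Hba-a1. Jarid2 KO minus Ezh2 KO ran over -0.14 to 0.42 for Jarid2 and -0.0233 to 0.0803 for Gata1. The cause was not tested. All fits without the richest cells, limma, the fits with all 6 markers, the rule without Car1, the test between the sexes and the comparison with megakaryocyte-primed cells were chosen after seeing the data. The number of cells limits the transplant shares, where 3 cells would be 0.0643% of the Control library.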
